A study of Mus musculus with 13 samples.

Results

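The transcription factors that build the erythroid and megakaryocyte programs were followed in F4/80+ cells sorted from the E13.5 fetal liver of the mouse. They were taken by gene symbol as a list of 10 genes, namely Gata1, Gata2, Tal1, Lmo2, Ldb1, Zfpm1, Gfi1b, Nfe2, Bcl11a and Myb. All 10 were found among the 23337 genes of the EKLF+/+ and EKLF-/- libraries, the 35389 genes of the EKLF/GFP libraries and the 54227 genes of the single-cell library, and all 10 passed the filter on low counts in both bulk comparisons. F4/80, encoded by Adgre1, is a surface protein of macrophages, and EKLF, encoded by Klf1, is an erythroid transcription factor.

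The study held 12 bulk RNA-Seq libraries in 4 groups of 3 biological replicates and 1 single-cell library. EKLF+/+ cells were wild type and EKLF-/- cells were null for EKLF. EKLF/GFP+ and EKLF/GFP- cells were both wild type for EKLF and carried pEKLF-GFP, a transgene in which the EKLF promoter drives green fluorescent protein, and they were separated by sorting on GFP within F4/80+ cells. The single cells were EKLF+/+ cells from littermate embryos of 1 mother, enriched on F4/80 with magnetic beads in the presence of a peptide that blocks the contact between macrophages and erythroid cells. The labels give C57BL/6 as the strain of every sample, whereas the study's methods place the EKLF-null line on a 129S4/SvJae background. RNA of the EKLF/GFP+ libraries was isolated with another kit (Agilent Absolutely RNA Nanoprep) than RNA of the EKLF/GFP- libraries (Trizol) because cells were few, and its integrity is given as lower than that of the EKLF+/+ and EKLF-/- RNA, so the kit and the GFP group cannot be told apart.

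GATA1 and GATA2 bind the same short DNA motif, and GATA1 replaces GATA2 at many sites as erythroid cells mature. At erythroid enhancers GATA1 works in a complex with the basic helix-loop-helix protein TAL1, the bridging protein LMO2 and the scaffold LDB1, which brings enhancers and promoters together. FOG1 (encoded by Zfpm1) is the cofactor through which GATA1 activates and represses, GFI1B is a repressor needed for both lineages, NF-E2 p45 (encoded by Nfe2) drives globin and platelet genes together with a small MAF protein, BCL11A silences embryonic and fetal globin genes, and MYB keeps progenitors dividing.

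The genes are spread over 9 chromosomes. In GRCm38 the plus-strand genes are Bcl11a at chr11:24078056-24174123, Gata2 at chr6:88193891-88207032, Lmo2 at chr2:103957986-103981878, Tal1 at chr4:115056426-115071755 and Zfpm1 at chr8:122282141-122337251. The minus-strand genes are Gata1 at chrX:7959260-7978071, Gfi1b at chr2:28609450-28621982, Ldb1 at chr19:46031570-46045214, Myb at chr10:21124935-21160984 and Nfe2 at chr15:103248212-103258403. Only Lmo2 and Gfi1b share a chromosome.

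The promoter sequences of 4 factors are shown because these factors behaved differently in the comparisons below. Gata1, Gfi1b and Tal1 had the largest differences between the GFP groups, and Bcl11a had the largest difference between the EKLF genotypes. Each is a window of 300 bases, 250 before and 50 after a RefSeq transcript start, in build GRCm38.p6, written in the direction of transcription. The promoters are Gata1 at chrX:7967861-7968160 (minus strand), Gfi1b at chr2:28621933-28622232 (minus strand), Tal1 at chr4:115056176-115056475 (plus strand) and Bcl11a at chr11:24080445-24080744 (plus strand). Capitals mark matches to a GATA motif (AGATAA or TGATAA) or to CCNCNCCC, the CACCC-type motif of EKLF, on either strand, and matches that overlap run together.
Gata1: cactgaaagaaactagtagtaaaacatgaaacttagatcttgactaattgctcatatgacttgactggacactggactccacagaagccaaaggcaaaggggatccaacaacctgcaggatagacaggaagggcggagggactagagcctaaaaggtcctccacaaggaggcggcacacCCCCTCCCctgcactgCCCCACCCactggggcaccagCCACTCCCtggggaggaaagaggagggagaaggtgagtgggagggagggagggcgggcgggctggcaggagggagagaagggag
Gfi1b: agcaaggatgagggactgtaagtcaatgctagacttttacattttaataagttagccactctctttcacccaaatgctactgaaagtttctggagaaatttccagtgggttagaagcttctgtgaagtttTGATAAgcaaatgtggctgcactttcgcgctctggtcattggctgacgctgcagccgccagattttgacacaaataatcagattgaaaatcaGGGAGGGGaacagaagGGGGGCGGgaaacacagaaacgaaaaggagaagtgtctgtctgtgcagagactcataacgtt
Tal1: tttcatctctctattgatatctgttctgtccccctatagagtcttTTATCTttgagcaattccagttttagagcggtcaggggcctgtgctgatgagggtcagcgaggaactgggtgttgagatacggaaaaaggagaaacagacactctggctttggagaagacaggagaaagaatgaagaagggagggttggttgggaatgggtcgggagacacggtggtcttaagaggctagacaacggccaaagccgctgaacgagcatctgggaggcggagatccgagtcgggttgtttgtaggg
Bcl11a: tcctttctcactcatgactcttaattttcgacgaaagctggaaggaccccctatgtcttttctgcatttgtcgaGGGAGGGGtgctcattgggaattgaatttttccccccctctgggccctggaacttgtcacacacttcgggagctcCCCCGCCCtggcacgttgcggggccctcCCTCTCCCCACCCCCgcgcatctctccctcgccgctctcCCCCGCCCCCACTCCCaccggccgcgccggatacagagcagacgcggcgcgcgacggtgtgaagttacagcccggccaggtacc
The Gata1 window starts transcription at base X:7967910, which is also the start of the annotated transcript Gata1-201. Positions are those of the first base of a match relative to the start. The Gata1 window held CACCC-type matches at -71, -55 and -34 and 0 GATA matches. The Gfi1b window held a GATA match at -120 and CACCC-type matches at -28 and -12. The Tal1 window shown held a GATA match at -205 and 0 CACCC-type matches. Another Tal1 window, not shown, with its start at 115057811, held 4 CACCC-type matches between -248 and -194 and 0 GATA matches. Tal1-204, the transcript with most Tal1 counts in both GFP groups, starts at 115059508, outside both windows. The Bcl11a window held 8 CACCC-type matches between -176 and -26 and 0 GATA matches. RefSeq windows were matched for 8 of the 10 factors, in 12 windows, and not for Lmo2 and Nfe2. Of the 12 windows 3 held a GATA match, 11 a CACCC-type match and 2 both. Of all 32851 windows of this length, 18.6% held a GATA match, 49.5% a CACCC-type match and 5.73% both. A match is a string of letters and was not tested as a binding site.

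The EKLF+/+ and EKLF-/- libraries held between 10695514 and 15362161 reads on genes, and the EKLF/GFP libraries between 22721900 and 28735322 estimated reads on genes. Klf1 itself was measured first as a check of the labels. Its normalized counts, which are reads scaled to a common library size, were 4731, 3977 and 4906 in EKLF+/+ and 767, 838 and 746 in EKLF-/-, a 5.79-fold lower level. In the GFP groups Klf1 was 2626, 2355 and 2278 in EKLF/GFP+ and 903, 1194 and 747 in EKLF/GFP-. Klf1 was thus low in all 3 EKLF-/- libraries and high in all 3 EKLF/GFP+ libraries, as the labels say. Markers of erythroid-like, granulocyte-monocyte progenitor-like, neutrophil-like and hepatoblast-like cells were read in every group beside those of macrophage-like cells, and in bulk RNA fewer cells of a type and less RNA of a gene per cell cannot be told apart.

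**Figure D1:**
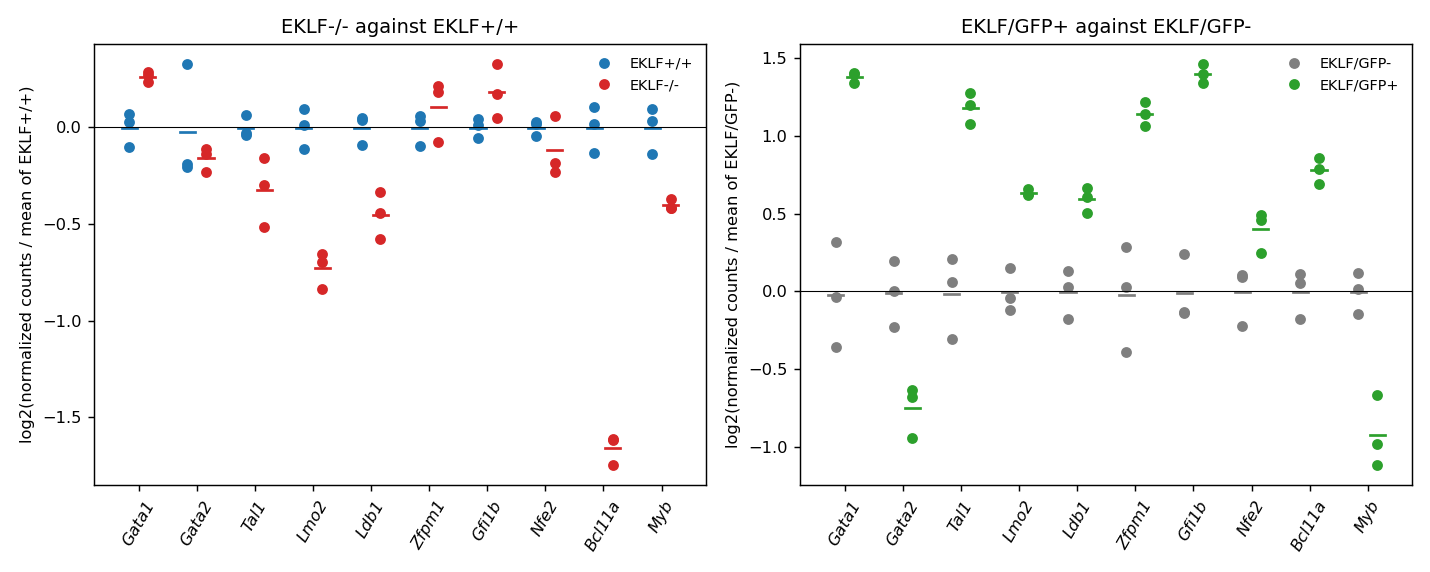
Normalized counts of the 10 factors in each library as the log2 ratio to the mean of EKLF+/+ (left) or of EKLF/GFP- (right). Points are libraries and short bars are the means of the 3 log2 values of a group. Bcl11a stands lowest in EKLF-/- against EKLF+/+, and on the right 8 factors lie above and Gata2 and Myb below the EKLF/GFP- libraries.

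The first question was which of the factors differ between EKLF-/- and EKLF+/+ cells. In EKLF-/- 4 of the 10 were called lower. Bcl11a fell 3.16-fold, Lmo2 fell 1.66-fold, and Ldb1 and Myb fell by smaller amounts, while Gata1, Gata2, Tal1, Zfpm1, Gfi1b and Nfe2 did not pass the test. No factor was called higher by edgeR or by DESeq2, and 1 factor, Gata1, was higher at an unadjusted p under 0.05 by edgeR. Of the 12753 genes tested with edgeR's quasi-likelihood test and adjusted after Benjamini-Hochberg, 1356 (10.6%) were lower and 1239 (9.72%) were higher in EKLF-/-. The median log2 fold change of the 10 factors was -0.24, and that of all genes tested was 0.02. The groups did not overlap for 5 factors in the lower and 2 in the higher direction, and over all genes they did not overlap for 23.4% in the lower and 22.9% in the higher direction. The count of genes called lower dropped to 576, 609 and 632 without EKLF+/+ replicates 1, 2 and 3 and to 575 without EKLF-/- replicate 3. The count called higher dropped to 346, 417, 370 and 426 in the same order. Without EKLF-/- replicate 1 the counts rose to 1889 lower and 1730 higher, and without EKLF-/- replicate 2 to 1734 and 1288.

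The factor with the largest difference was Bcl11a, the globin repressor. Its normalized counts were 2164, 1836 and 2039 in EKLF+/+ and 656, 599 and 657 in EKLF-/-. The groups were far apart and each was narrow. The log2 fold change was -1.66 (SE 0.11, adjusted p = 3.36e-05 by edgeR's quasi-likelihood test). Bcl11a was called lower under all 13 alternatives run on these libraries.

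Of the bridging proteins, Lmo2 had normalized counts of 3842, 3527 and 4069 in EKLF+/+ and 2355, 2136 and 2418 in EKLF-/-. The highest EKLF-/- library was well under the lowest EKLF+/+ library, and the log2 fold change was -0.73 (SE 0.11, adjusted p = 0.00329 by edgeR). The scaffold Ldb1 had 3269, 3241 and 2962 in EKLF+/+ and 2117, 2509 and 2320.1 in EKLF-/-. The groups again did not overlap, and the log2 fold change was -0.45 (SE 0.11, adjusted p = 0.0238 by edgeR).

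The progenitor factor Myb had normalized counts of 3127, 3268 and 2783 in EKLF+/+ and 2294, 2292 and 2363 in EKLF-/-. The EKLF-/- libraries were close together and below the EKLF+/+ libraries, with a log2 fold change of -0.40 (SE 0.10, adjusted p = 0.0293 by edgeR). The calls of Ldb1 and Myb were less firm than those of Bcl11a and Lmo2. Without EKLF+/+ replicate 1 their adjusted p by edgeR was 0.1 and 0.114, without EKLF+/+ replicate 2 it was 0.0767 and 0.0954, and without EKLF-/- replicate 3 it was 0.0877 and 0.0939. With the replicate number as a block it was 0.0544 for Ldb1 and 0.0715 for Myb.

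The DNA-binding factors of the complex were not called. Tal1 had normalized counts of 6781, 6852 and 7299 in EKLF+/+ and 6261, 4874 and 5670.4 in EKLF-/-. All EKLF-/- libraries were lower, replicate 2 the lowest, and the log2 fold change of -0.32 (SE 0.12) had an adjusted p of 0.0963 by edgeR. Without EKLF-/- replicate 1 the log2 fold change was -0.40 and the adjusted p by edgeR was 0.0495. Gata1 had 3034, 2692 and 2949 in EKLF+/+ and 3525, 3488 and 3403 in EKLF-/-. Here all EKLF-/- libraries were the higher ones, with a log2 fold change of 0.26 (SE 0.10, adjusted p = 0.0881 by edgeR). Gata2, the GATA factor of progenitors, had 758, 1086 and 752 in EKLF+/+ and 800.2, 739 and 787 in EKLF-/-. These groups overlapped. EKLF+/+ replicate 2 stood above the rest, and without it the log2 difference of -0.16 became 0.02.

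The partners and downstream factors moved little. The repressor Gfi1b had normalized counts of 1491, 1420.2 and 1521 in EKLF+/+ and 1531, 1669 and 1852 in EKLF-/-, which did not overlap, with a log2 fold change of 0.19 (SE 0.10, adjusted p = 0.21 by edgeR). The GATA1 cofactor gene Zfpm1 had 8241, 8414 and 7533 in EKLF+/+ and 7642, 9354 and 9172 in EKLF-/-. Nfe2 had 2439, 2544 and 2565 in EKLF+/+ and 2217, 2624 and 2144 in EKLF-/-. The groups overlapped for both genes, whose log2 fold changes were 0.11 and -0.11.

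Cell type markers moved between the genotypes as well. The summed normalized counts of the erythroid-like markers were 37781 to 56876 in EKLF-/- and 97064 to 115949 in EKLF+/+, with 4 of 7 tested lower. Markers of progenitor-like cells summed to 4125 to 4547 in EKLF-/- and 5856 to 7113 in EKLF+/+, with 4 of 7 lower. In the other direction, 4 of 5 markers of granulocyte-monocyte progenitor-like cells and 4 of 7 of neutrophil-like cells were higher in EKLF-/-. Macrophage-like markers had 3 of 10 lower, and endothelial-like markers 4 of 7 lower and mesenchymal-like markers 4 of 6 lower. Of the remaining lists, monocyte-like (1 of 6) and mast cell- or basophil-like (2 of 5) had members higher, lymphoid-like had 1 of 4 lower, megakaryocyte-like had 1 lower and 1 higher of 9, and hepatoblast-like had 0 of 7 called. Shares over all genes were 10.6% lower and 9.72% higher. The part of the marker shifts in the differences of the factors was not tested.

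The second question was how the factors differ between F4/80+ cells with and without GFP signal from the EKLF promoter. Klf1 itself was read in both groups, at a lower level in EKLF/GFP-. Here all 10 factors differed. Gata1, Tal1, Zfpm1, Gfi1b, Bcl11a, Lmo2, Ldb1 and Nfe2 were higher in EKLF/GFP+ cells, and Gata2 and Myb, the factors of progenitors, were lower. The groups did not overlap for any of the 10. Of the 14238 genes tested with edgeR's quasi-likelihood test and adjusted after Benjamini-Hochberg, EKLF/GFP+ cells had 2694 (18.9%) at a higher and 3673 (25.8%) at a lower level, and the groups did not overlap for 25.2% in the higher and 30.5% in the lower direction. The median log2 fold change was 0.71 over the 10 factors and -0.01 over all genes tested.

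Gata1 rose 2.60-fold. Its normalized estimated counts were 2221, 2129 and 2234 in EKLF/GFP+ and 822, 1048 and 658 in EKLF/GFP-, so the lowest EKLF/GFP+ library stood well above the highest EKLF/GFP- library. The log2 fold change was 1.38 (SE 0.15, adjusted p = 0.000223 by edgeR). Gata2 moved in the opposite direction. It had 297, 248 and 307 in EKLF/GFP+ and 546, 406 and 477 in EKLF/GFP-, with all EKLF/GFP+ libraries the lower ones and a log2 fold change of -0.75 (SE 0.14, adjusted p = 0.00361 by edgeR). With limma on the authors' normalized counts the Gata2 log2 difference was -0.60 and no longer passed (adjusted p = 0.0735).

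Tal1, the partner of GATA1 at enhancers, had normalized estimated counts of 1665, 1452 and 1581 in EKLF/GFP+ and 717, 794 and 556 in EKLF/GFP-. The groups were well apart, and the log2 fold change was 1.18 (SE 0.13, adjusted p = 0.000233 by edgeR). The bridging proteins rose by less. Lmo2 had 1981, 2023 and 1977 in EKLF/GFP+ and 1247, 1425 and 1179 in EKLF/GFP-, with a log2 fold change of 0.63 (SE 0.09, adjusted p = 0.000659 by edgeR). Ldb1 had 3673, 3288 and 3526 in EKLF/GFP+ and 2362, 2536 and 2046 in EKLF/GFP-, and was 1.51-fold higher (SE 0.10 on the log2 scale, adjusted p = 0.00137 by edgeR). For each of these 3 genes, EKLF/GFP- replicate 3 was the lowest library.

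Zfpm1, which encodes the cofactor of GATA1, and the repressor gene Gfi1b were also higher. Zfpm1 had normalized estimated counts of 5751, 5157 and 5447 in EKLF/GFP+ and 2522, 3008 and 1886 in EKLF/GFP-, with a log2 fold change of 1.14 (SE 0.15, adjusted p = 0.000591 by edgeR). Gfi1b had 1551, 1492 and 1622 in EKLF/GFP+ and 533, 697 and 536 in EKLF/GFP-, with a log2 fold change of 1.40 (SE 0.12, adjusted p = 5.63e-05 by edgeR). In both genes the lowest EKLF/GFP+ library lay far above the highest EKLF/GFP- library. Gfi1b and Gata1, whose promoters are shown above, had the largest differences of the 10.

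Nfe2 showed the smallest rise. It had normalized estimated counts of 3254, 2754 and 3190 in EKLF/GFP+ and 2470, 2495 and 1990 in EKLF/GFP-, with a log2 fold change of 0.40 (SE 0.11, adjusted p = 0.0186 by edgeR). The call was lost when the average transcript length entered the fit (0.30, adjusted p = 0.108 by edgeR) and with limma on the authors' normalized counts (0.34, adjusted p = 0.0758). Bcl11a had 2658, 2789 and 2490.1 in EKLF/GFP+ and 1358, 1596 and 1665 in EKLF/GFP-. All EKLF/GFP+ libraries were higher, with a log2 fold change of 0.78 (SE 0.10, adjusted p = 0.000355 by edgeR). Myb had 5899, 4307 and 4745 in EKLF/GFP+ and 10137, 9477 and 8474 in EKLF/GFP-. It fell by 0.91 on the log2 scale (SE 0.13, adjusted p = 0.000684 by edgeR), and EKLF/GFP+ replicate 1 was the highest of its group.

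Cell type markers differed between the GFP groups too. Summed markers of erythroid-like cells were 211786 to 266575 in EKLF/GFP+ and 103890 to 137716 in EKLF/GFP-, with 9 of 9 tested higher. Megakaryocyte-like markers had 8 higher and 1 lower of 9. Markers of myeloid and stem-like cells were lower in EKLF/GFP+, with 6 of 6 monocyte-like, 7 of 7 neutrophil-like, 5 of 5 granulocyte-monocyte progenitor-like, 7 of 7 progenitor-like and 6 of 6 lymphoid-like markers called. The progenitor-like sum was 3792 to 4541 in EKLF/GFP+ and 11258 to 13908 in EKLF/GFP-. Endothelial-like markers had 5 of 7 lower, macrophage-like 1 of 10 lower, mast cell- or basophil-like 1 of 6 lower, mesenchymal-like 1 of 5 lower and hepatoblast-like 0 of 7 called. Shares over all genes were 25.8% lower and 18.9% higher. The part of these markers, of the RNA kit and of RNA integrity in the differences of the factors was not tested.

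Genes that work with the factors were counted in 7 lists. Of 19 partners of the GATA1, TAL1, LMO2 and LDB1 complex, 3 were lower and 1 higher in EKLF-/- (median log2 fold change -0.17), against 10.6% and 9.72% of all genes. Klf1 is in this list and its calls are set by the design. Beside Klf1, the E protein gene Tcf3, whose product pairs with TAL1, fell by 0.66 on the log2 scale (SE 0.10, adjusted p = 0.00395 by edgeR). The LDB1-binding protein genes Ssbp3 and Ssbp2 went in opposite directions, with log2 fold changes of -0.47 (SE 0.09, adjusted p = 0.0119) and 0.52 (SE 0.11, adjusted p = 0.0143 by edgeR). The call of Ssbp2 was lost without EKLF+/+ replicate 1 or 2 or EKLF-/- replicate 3, and 5 partners were lower without EKLF-/- replicate 1. Between the GFP groups, 4 partners were lower and 3, including Klf1, were higher in EKLF/GFP+ (median 0.002), near the 25.8% and 18.9% of all genes. The core binding factor genes Cbfb and Runx1 were lower (log2 fold changes -2.02 and -0.91 (SE 0.13 and 0.09)), as was Fli1, an ETS factor of megakaryocytes and stem cells (591 ± 76 against 2374 ± 183 normalized counts, SD, n = 3). Ssbp3 (0.85, SE 0.06) and Tcf3 (0.54, SE 0.15) were higher, with adjusted p of 3.37e-05 and 0.0209 by edgeR.

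Paralogs of the factors were counted next. In EKLF-/- 2 of 11 tested were lower and 2 higher, against 10.6% and 9.72% of all genes. Gfi1, the myeloid counterpart of Gfi1b, was 360 ± 92 (SD, n = 3) normalized counts in EKLF+/+ and 796 ± 315 in EKLF-/- (adjusted p = 0.0306 by edgeR). Lmo1 was higher as well, at 29.3 against 56.7, and Mybl2 (-0.85) and Nfe2l1 (-0.42 (SE 0.12)) were lower on the log2 scale. Both higher calls were lost, and the count of lower genes was 1, without any 1 EKLF+/+ library or without EKLF-/- replicate 3. In EKLF/GFP+ 5 of 12 paralogs were lower and 2 higher, against 25.8% and 18.9% of all genes. The 5 became 2 without any 1 EKLF/GFP- library. Gfi1 was 21.3 ± 5.5 (SD, n = 3) in EKLF/GFP+ and 330.1 ± 65.5 in EKLF/GFP-, opposite to Gfi1b. Lmo1 (log2 fold change -4.31) and Gata3 (-3.20) were also lower, whereas Mybl2 (0.53) and Nfe2l2 (0.36) were higher. Tal2 and Bcl11b passed the count filter in neither comparison, and Zfpm2 did not pass in EKLF-/-.

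The small MAF and BACH genes pair with or compete against NF-E2. In EKLF-/- 2 of 5 were lower, against 10.6% of all genes. They were Mafk (log2 fold change -0.64, SE 0.12, adjusted p = 0.00815) and Bach2 (-1.37, SE 0.35, adjusted p = 0.0307 by edgeR). In EKLF/GFP+ Mafk (1.02) and Mafg (0.80) were higher and Bach2 (-0.99) was lower of 4 tested, against 18.9% and 25.8% of all genes. The 2 calls in EKLF-/- became 1 without any 1 EKLF+/+ library or without EKLF-/- replicate 3, and that of Bach2 in EKLF/GFP+ was lost without EKLF/GFP+ replicate 3 or EKLF/GFP- replicate 1. Mafk, the partner with which NF-E2 binds the globin enhancers, was 1190 ± 37 (SD, n = 3) in EKLF+/+ and 763 ± 95 in EKLF-/-, and 398 ± 16 in EKLF/GFP+ and 196 ± 25 in EKLF/GFP-.

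Most erythroid genes known as targets of GATA1 were called in both comparisons. In EKLF-/- 8 of 14 were lower and 1 higher (median log2 fold change -0.67), against 10.6% and 9.72% of all genes. The adult beta-globin gene Hbb-bs (-5.28), the mitochondrial iron importer Slc25a37 (-2.84) and the adhesion molecule Icam4 (-2.01) fell most, and the heme synthesis gene Uros (0.97) rose. A further 5 were not called. The study describes Icam4 as activated directly by EKLF, and Gata1 itself was not called in EKLF-/-. Which factor set the changes of this list was not tested. In EKLF/GFP+ 17 of 17 were higher (median 1.32), against 18.9% of all genes. The 17 included the erythropoietin receptor Epor (1.62), the heme synthesis gene Alas2 (1.60) and Icam4 (1.57). The adult alpha-globin genes were at or near 0 in the EKLF+/+ and EKLF-/- counts and are near-identical copies, so they were not tested there.

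Of the genes that GATA1 is known to repress as red cells mature, 4 of 6 were lower and 0 higher in EKLF/GFP+. Their median log2 fold change was -0.63, and 25.8% and 18.9% of all genes were called lower and higher. Cd34 (-3.85) and Spi1 (-2.56) were the furthest beside Gata2. In EKLF-/- Kit, the stem cell factor receptor, was lower (-0.93, SE 0.13, adjusted p = 0.00267 by edgeR) and Spi1, which encodes the myeloid factor PU.1, was higher (0.86, SE 0.22, adjusted p = 0.0299), while 4 of 6 were not called. The Spi1 call in EKLF-/- was lost without EKLF-/- replicate 3 or any EKLF+/+ replicate.

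In the list of megakaryocyte genes most were higher in EKLF/GFP+. In EKLF-/- 1 of 12, Treml1, was higher, a share near the 9.72% of all genes, with a log2 fold change of 1.38 (median of the list -0.055). The count of higher genes was 2 without EKLF+/+ replicate 2 and 3 without EKLF-/- replicate 1. In EKLF/GFP+ 10 of 12 were higher (median 1.03), led by Ppbp (2.46), Gp1bb (2.27) and Tubb1 (1.43), against 18.9% of all genes. Gp1bb was low, with 40.9 ± 3.1 (SD, n = 3) normalized counts in EKLF/GFP+ and 8.7 ± 9.5 in EKLF/GFP-. The 10 became 6 without EKLF/GFP+ replicate 2 or 3 or EKLF/GFP- replicate 2.

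The embryonic globin genes Hbb-y, Hbb-bh1 and Hba-x were counted beside Bcl11a. In EKLF-/-, where Bcl11a was lowest, 2 of 3 were lower and 0 higher. Hba-x fell by 5.37 on the log2 scale (SE 0.29, adjusted p = 1.43e-05 by edgeR). Hbb-y fell by 2.16 (SE 0.27, adjusted p = 0.0015 by edgeR). Hbb-bh1 was not called (log2 fold change 0.34, SE 0.20, adjusted p = 0.241 by edgeR). In EKLF/GFP+, where Bcl11a was higher, all 3 were higher, with log2 fold changes of 2.45 for Hbb-bh1, 2.18 for Hba-x and 1.79 for Hbb-y. Shares over all genes were 10.6% lower in EKLF-/- and 18.9% higher in EKLF/GFP+. The globin values are sums over mixed cells, and primitive red cells and definitive cells were not separated.

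The ratio of a pair of factors within a library does not depend on how libraries are scaled. The log2 ratio of Gata1 over Gata2 was 2.71, 2.86 and 2.71 in EKLF/GFP+ and 0.41, 0.89 and 0.15 in EKLF/GFP- (from TPM). The ratio was thus higher in every EKLF/GFP+ library, by 2.28 on average. In EKLF-/- the same ratio, here from counts, was 2.14, 2.24 and 2.11 and in EKLF+/+ 2.00, 1.31 and 1.97, also without overlap but with a difference of 0.40. This rested on EKLF+/+ replicate 2, without which the difference was 0.18. The ratio of Gata1 over Spi1, which sets erythroid against myeloid factor, was 0.86, 0.74 and 0.50 in EKLF/GFP+ and -3.33, -3.01 and -3.62 in EKLF/GFP-, a difference of 4.02. In EKLF-/- the groups overlapped, with a difference of -0.56 that was -0.31 without EKLF-/- replicate 2.

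Tal1 over its paralog Lyl1 moved in opposite directions. From TPM the mean log2 ratio was -0.01 ± 0.07 in EKLF/GFP+ and -1.02 ± 0.14 in EKLF/GFP- (SD, n = 3). From counts it was 1.09 ± 0.40 in EKLF-/- and 1.77 ± 0.14 in EKLF+/+ (SD, n = 3). The groups did not overlap in either pair, and the units differ, so levels cannot be compared between the pairs. The difference of -0.68 in EKLF-/- was -0.45 without EKLF-/- replicate 2. Lmo2 over Ldb1 overlapped in both pairs, with differences of 0.12 for EKLF/GFP+ and -0.28 for EKLF-/-. With 3 libraries against 3, the two-sided exact permutation test cannot give a p below 0.1, and the 5 ratios without overlap had this smallest p and, adjusted over the 8 ratios, 0.16.

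The EKLF/GFP libraries were quantified per transcript, which shows which form of each gene was read. The 10 genes had 59 annotated transcripts, of which 7 were at 0 in all 6 libraries. Gata1 came almost entirely from Gata1-201, with 96.0% to 98.2% of its estimated counts in EKLF/GFP+ and 96.2% to 98.5% in EKLF/GFP-. Tal1 came mainly from the short form Tal1-204, with 75.2% ± 2.3 (SD, n = 3) in EKLF/GFP+ and 75.8% ± 12.6 in EKLF/GFP-. For 2 factors an annotated retained intron held a large share. Myb-202 had 66.8% ± 6.2 of the Myb counts in EKLF/GFP+ and 71.0% ± 1.9 in EKLF/GFP-, and Gata2-204 had 39.9% ± 5.8 and 44.1% ± 4.2 of the Gata2 counts.

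Few transcript shares differed between the groups. Of 25 transcripts with at least 10% of their gene, 4 did not overlap. Tal1-201, the form that starts at the promoter shown above, had 22.5% ± 3.4 (SD, n = 3) of the Tal1 counts in EKLF/GFP+ and 13.02% ± 4.6 in EKLF/GFP-. Zfpm1-204 was also the larger share in EKLF/GFP+ (12.3% against 7.89%), and Ldb1-201 (55.3% against 60.4%) and Lmo2-201 (7.82% against 12.6%) were the smaller. None passed the adjustment, where the lowest adjusted p of the two-sided exact permutation test was 0.577. The shares of Lmo2 counts from transcripts of its distal start, an arrangement of start sites chosen after seeing the data, were 55.3% ± 7.0 in EKLF/GFP+ and 42.1% ± 11.9 in EKLF/GFP- (SD, n = 3, exact permutation p = 0.3).

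**Figure D2:**
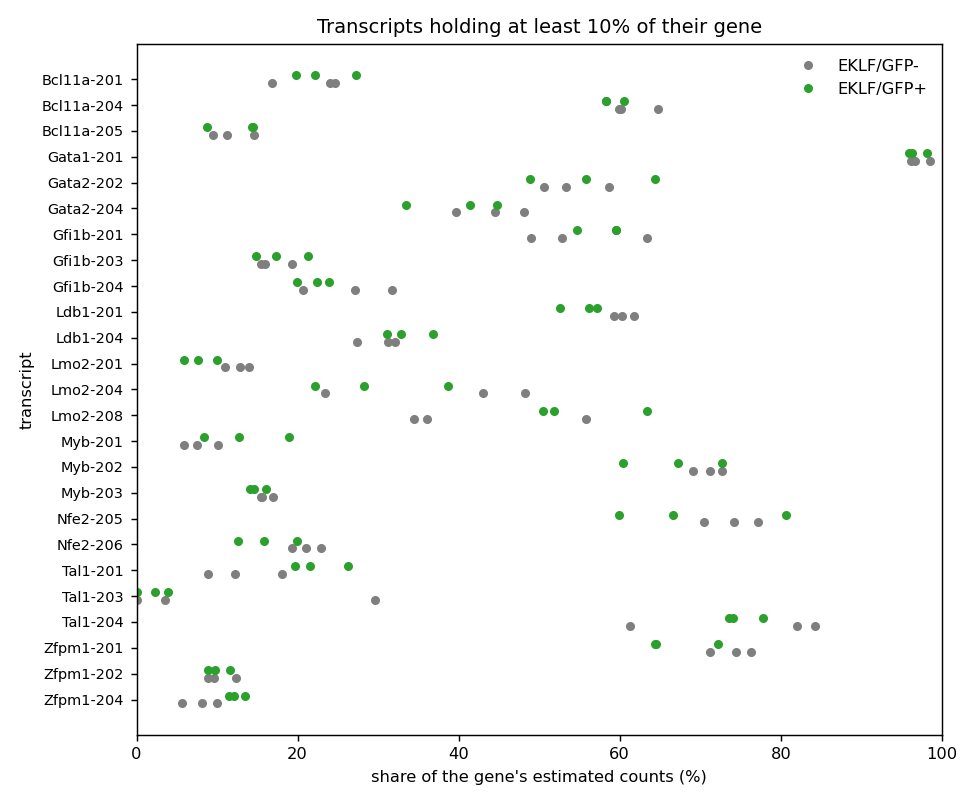
Share of each gene's estimated counts (percent, horizontal axis) held by the 25 transcripts with at least 10% in either group, with a point for each of the 3 EKLF/GFP+ and 3 EKLF/GFP- libraries. The groups overlap for 21 transcripts, and Gata1-201 lies at 96.0% or above in every library.

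Levels of different factors were compared only per transcript length, as TPM in the EKLF/GFP libraries. Summed over all transcripts, Gfi1b (191 ± 38, SD, n = 3) and Zfpm1 (184 ± 27) were the highest of the 10 in EKLF/GFP+ and did not differ beyond their ranges. Lmo2 (79.0 ± 11), Ldb1 (75.7 ± 9.8), Nfe2 (62.4 ± 11), Myb (48.3 ± 11.5), Gata1 (37.0 ± 3.3) and Bcl11a (34.6 ± 2.2) followed, each overlapping its neighbor. Tal1 (12.1 ± 1.6) and Gata2 (5.48 ± 0.75) were the lowest and apart from their neighbors. In EKLF/GFP- the order began with Myb (96.8 ± 11.6), followed by Gfi1b (70.5 ± 8.9) and Zfpm1 (70.0 ± 8.4), which overlapped. Nfe2, Ldb1 and Lmo2 lay between 48.1 and 52.5 and overlapped, and Bcl11a (22.0), Gata1 (14.2), Gata2 (10.2) and Tal1 (5.55) were each apart from the next.

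This order rests on which transcripts are counted. Gfi1b-203, a short processed transcript, had only 17.8% ± 3.2 of the Gfi1b estimated counts in EKLF/GFP+, but a TPM of 142 to 211 in these libraries. With protein-coding transcripts only, an alternative chosen after seeing the data, Nfe2 was the highest in both groups (62.4 ± 11 and 52.5 ± 7.0 TPM). Gfi1b was then 18.5 ± 2.1 in EKLF/GFP+ and 7.41 ± 1.41 in EKLF/GFP-, Zfpm1 25.6 ± 4.6 and 13.3 ± 3.4, and Myb 9.60 ± 0.40 and 15.7 ± 2.2 (SD, n = 3). Gata2 remained the lowest in EKLF/GFP+ (1.28) and was the lowest in EKLF/GFP- (2.07). The direction between the groups was the same for all 10 with either sum, though Nfe2 overlapped in TPM.

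**Figure D3:**
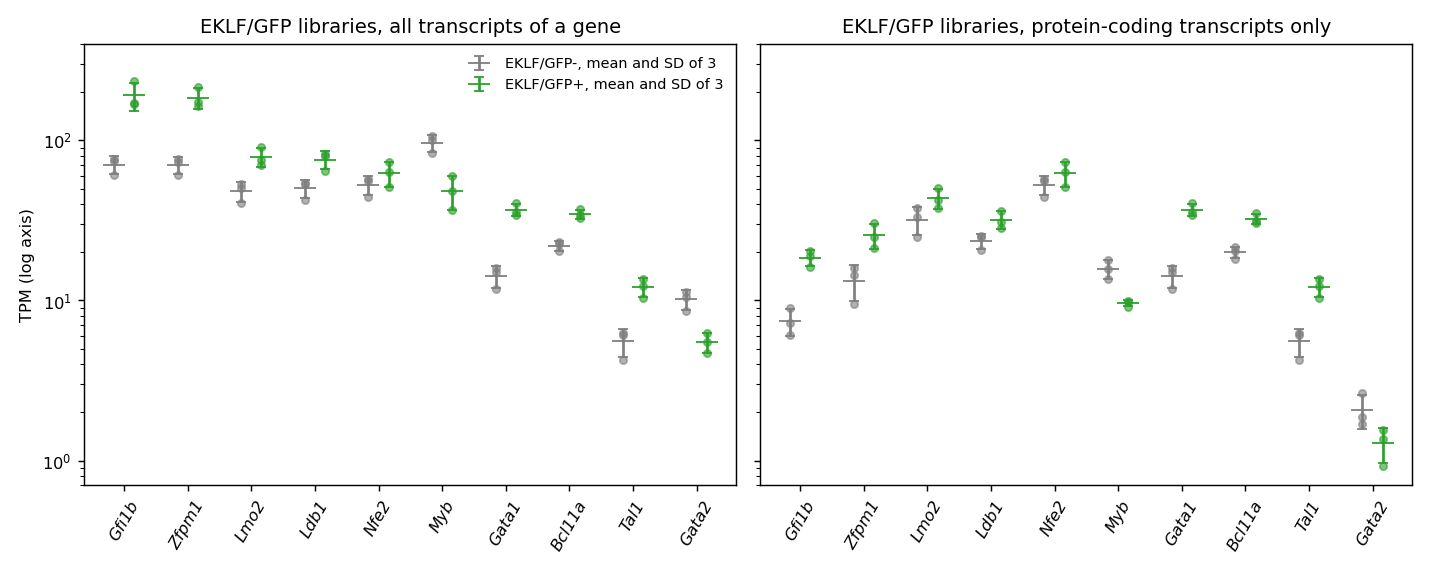
TPM of the 10 factors on a log axis, summed over all transcripts (left) and over protein-coding transcripts only (right). Points are libraries, and horizontal marks with bars give the mean and SD of 3 libraries. Gfi1b leads at 191 TPM in EKLF/GFP+ on the left and has 18.5 TPM on the right, where Nfe2 leads.

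Single cells showed in which F4/80-enriched cells the factors were read. The library held 3096 barcodes, of which 3093 had at least 200 genes, with a median of 18605 counts per cell. The study's methods state a slightly smaller number of cells after a filter whose limits are not given. The 10 factors were left out of the clustering, so their levels did not set the 17 clusters. Of these, 12 were named from marker lists and 5 (clusters 1, 2, 5, 9 and 14) stayed unnamed. There is 1 sample and no test, and 95% Wilson intervals cover counting error only. Values are CPM of the summed counts of a cluster and are compared for 1 gene across clusters.

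Several of the factors had their highest levels in the same clusters. Gata1, Tal1, Lmo2, Zfpm1 and Gfi1b were at their 3 highest levels in the same 3 clusters, namely erythroid-like cluster 7 (197 cells), megakaryocyte-like cluster 10 (86 cells) and unnamed cluster 5 (240 cells, led by Tmem56, Mns1 and Podxl). Gata1 was 97.6, 90.1 and 99.4 CPM there, in that order. It was 13.3 CPM in erythroid-like cluster 8, which was led by globin genes, and 2.43 and 1.69 CPM in the macrophage-like clusters 0 and 4. Gata1 had 0 counts in the endothelial-like, hepatoblast-like and neutrophil-like clusters, where 0 of 84, 0 of 67 and 0 of 30 cells had a count. For the 84 endothelial-like cells, a limit of 3 counts allows up to 3.57% of cells with a count, which does not limit the share of cells that express the gene at a lower level.

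Tal1 peaked in erythroid-like cluster 7 (255 CPM) and was 133 CPM in cluster 5 and 115 CPM in the megakaryocyte-like cells. It kept 106 CPM in cluster 8, where Gata1 was low, and 91.2 CPM in unnamed cluster 9. Lmo2 was highest in the megakaryocyte-like cells (279 CPM) and was the factor counted in most macrophage-like cells, with 56.6% (52.9 to 60.3). Ldb1 had the narrowest range of the 10, from 4.34 CPM in cluster 8 to 59.2 CPM in cluster 5.

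Zfpm1 was 283 CPM in the megakaryocyte-like, 254 CPM in erythroid-like cluster 7 and 224 CPM in cluster 5, and 5.08 to 7.30 CPM in the macrophage-like and monocyte-like clusters. It was also read in the endothelial-like (70.3 CPM) and hepatoblast-like cells (28.1 CPM). Gfi1b was 74.1 CPM in the megakaryocyte-like cells, 68.8 CPM in cluster 5 and 43.5 CPM in cluster 7, and under 3 CPM in all macrophage-like and monocyte-like clusters. Nfe2 had its own order. It was highest in the neutrophil-like cells (171 CPM), then in erythroid-like cluster 7 (113 CPM) and the megakaryocyte-like cells (94.8 CPM).

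Gata2, Myb and Bcl11a had other orders. Gata2 was 958 CPM in the 19 mast cell- or basophil-like cells, 72.6 CPM in the megakaryocyte-like, 41.4 CPM in the progenitor-like and 20.4 CPM in the endothelial-like cells, and under 1 CPM in both erythroid-like clusters. Myb was highest in the progenitor-like (240.2 CPM), granulocyte-monocyte progenitor-like (206 CPM) and megakaryocyte-like cells (158 CPM) and fell to 1.88 CPM in cluster 7 and 0.93 CPM in cluster 8. Bcl11a was 251 CPM in the progenitor-like cells, 183 CPM in cluster 5 and 126 CPM in the megakaryocyte-like cells. Between the erythroid-like clusters it was 34.3 CPM in cluster 7 and 1.86 CPM in the globin-rich cluster 8.

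**Figure D4:**
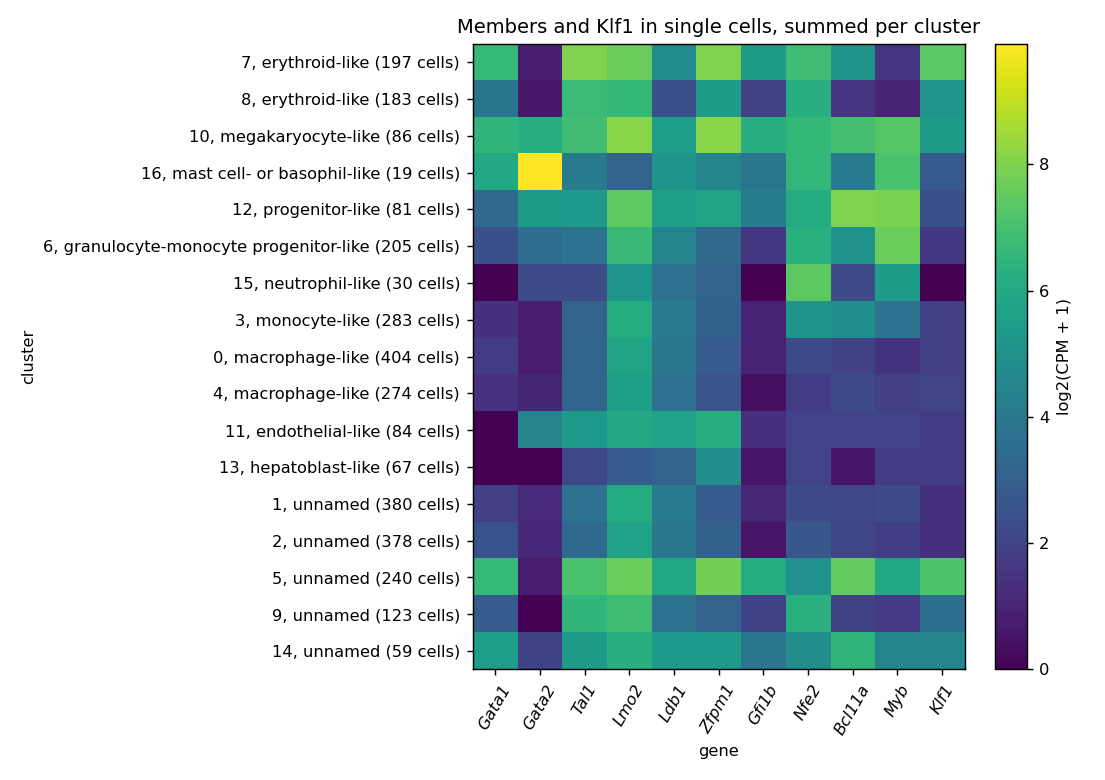
Level of the 10 factors and Klf1 (columns) in the 17 clusters of single cells (rows), as log2(CPM + 1) of the summed counts of a cluster. Rows for clusters 7, 10 and 5 are bright for Gata1, Tal1, Lmo2, Zfpm1 and Gfi1b, and Gata2 is brightest in cluster 16 at 958 CPM.

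Gata1 and Gata2 shared few cells outside the megakaryocyte-like and mast cell- or basophil-like clusters. Both were counted in 51 of 86 megakaryocyte-like cells (59.3%, 95% Wilson interval 48.7 to 69.1) and in 12 of 19 mast cell- or basophil-like cells (63.2%, 41.0 to 80.9). In cluster 7 both were counted in 4 of 197 cells (2.03%) and in cluster 5 in 6 of 240 (2.50%). Gata1 was counted in 175 of 197 and 229 of 240 cells, but Gata2 in only 4 and 7, which caps the joint share. Among the progenitor-like cells 9 of 81 held both, 1 held Gata1 alone and 27 held Gata2 alone. Gata1 was counted in only 10 of these 81 cells, which caps the joint share there. Bcl11a and Myb were counted together in 66 of 81 progenitor-like cells (81.5%), 55 of 86 megakaryocyte-like cells (64.0%) and 149 of 240 cells of cluster 5 (62.1%), and in 4 of 197 cells of cluster 7 (2.03%).

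**Figure D5:**
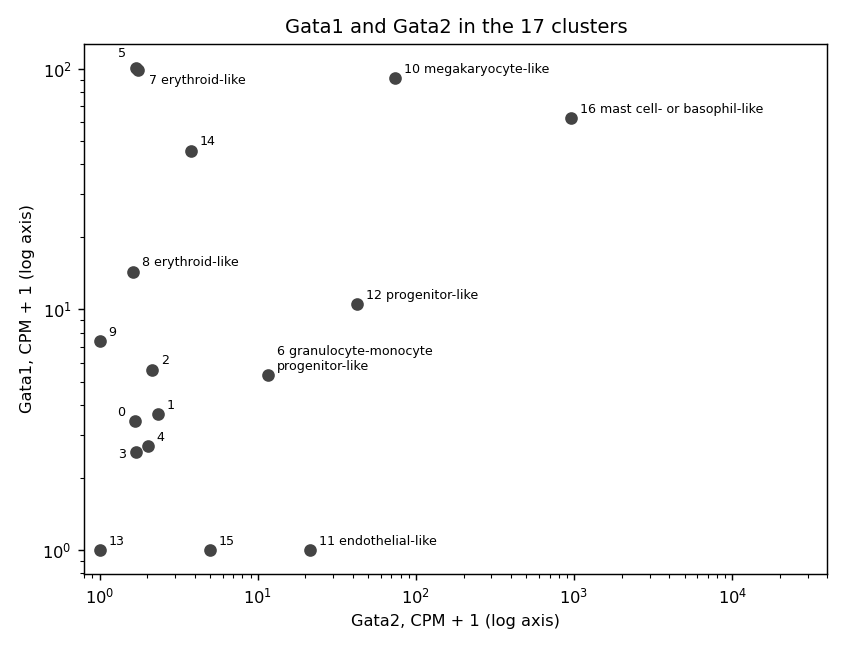
Gata1 (vertical) against Gata2 (horizontal) in the 17 clusters, both as CPM + 1 on log axes and labelled by cluster number. Clusters 5 and 7 lie high for Gata1 and low for Gata2, cluster 10 is high for both (90.1 and 72.6 CPM), and cluster 16 lies furthest right at 958 CPM.

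The number of factors seen per cell depends on depth. At least 5 of the 10 were counted in 97.7% of the megakaryocyte-like cells, 97.9% of cluster 5, 91.9% of cluster 7 and 77.8% of the progenitor-like cells. In the macrophage-like clusters 0 and 4 this was 1.24% and 0.365%. After every cell was thinned to 5000 counts, leaving out 56 shallower cells, the shares were 53.6% of the megakaryocyte-like cells, 24.3% of cluster 5, 17.3% of cluster 7, 15.2% of the progenitor-like cells and 0% of both macrophage-like clusters.

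Against the 678 macrophage-like cells (median 15345 counts per cell), 8 of the 10 factors were higher in the 380 erythroid-like cells (median 20390 counts) and all 10 in the 86 megakaryocyte-like cells (median 36552 counts). The exceptions by CPM were Gata2 (0.70 CPM in the erythroid-like and 0.76 in the macrophage-like cells) and Myb (1.52 and 1.964 CPM), and both were counted in under 4% of the cells of either class. Gata1 was counted in 54.5% of the erythroid-like cells, 90.7% of the megakaryocyte-like cells and 3.83% of the macrophage-like cells, and in 0 of the 67 hepatoblast-like cells (median 18872 counts), which should lack it. Klf1 was counted in 68.2% of the erythroid-like and 4.87% of the macrophage-like cells (Wilson interval 3.49 to 6.76). The share was 7.46% (3.23 to 16.3) in the hepatoblast-like and 6.36% in the monocyte-like cells. It was 2.38% in the endothelial-like cells, and 0 of 30 neutrophil-like cells had a Klf1 count. Whether the Klf1 counts in the macrophage-like cells are background was not tested. The 8 were 6 at a clustering resolution of 1.2 and 10 at 0.4. At a resolution of 0.4 the megakaryocyte-like cluster grew to 242 cells and its Gata2 level was 22.0 CPM in place of 72.6.

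Over the 17 clusters, the factor most like Gata1 was Gfi1b, which was also the first of 13322 genes (Pearson's r = 0.914 of log2(CPM + 1), a description across clusters that share 1 library and differ in depth). The next were Icam4 (0.908) and Pcyt1b (0.902). Tal1 was most like Art4 (0.947), a blood group gene, Myb was most like Spn (0.941) and Kit (0.926), and Gata2 was most like Slc18a2 (0.933), which encodes a monoamine transporter. Zfpm1 was most like Car1 (0.894), Nfe2 like Tspan32 (0.892), Bcl11a like Nfix (0.889), Ldb1 like Zc3h13 (0.915), Lmo2 like Nmnat3 (0.846) and Gfi1b like A730089K16Rik (0.917). Among the factors themselves, Gfi1b was also near Zfpm1 (0.854) and Bcl11a (0.807), whereas Gata2 was near Myb (0.698) and unlike Tal1 (0.06) and Lmo2 (-0.13).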

How the data were processed

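RNA was sequenced from F4/80+ fetal liver cells at E13.5. Reads of the wild type and EKLF-null cells had been aligned to mm10 (STAR), and the authors deposited raw counts per gene from htseq-count. Reads on no gene or without a unique alignment (67.22% to 72.69% of each file) were left out of library sizes. For the EKLF/GFP libraries the authors deposited Salmon values per transcript of Ensembl GRCm38, as estimated counts, which were summed per gene and rounded here, and as TPM. The authors' table of normalized counts, a signal divided by their size factors, served in 1 alternative, and their log2 table was not used, nor were 5 repeated columns in the file of EKLF+/+ replicate 1. Single-cell values are estimated counts that the authors deposited from Alevin with a GENCODE annotation. Tool versions, and whether strand was used in counting, are not given in the sources used here, so reads of genes that overlap could not be separated.

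Samples were grouped by their labels. Each bulk comparison was fitted alone, with genes of at least 10 counts in at least 3 libraries, TMM normalization and edgeR's two-sided quasi-likelihood test (edgeR 4.0.16), with p-values adjusted over every gene in the fit (Benjamini-Hochberg) and called at 0.05. The p-values measure the spread between libraries that the study calls biological replicates. Ratios and transcript shares were tested by two-sided exact permutation tests, whose smallest p is 0.1 with 3 against 3. Scripts were tested on simulated data. Single cells with at least 200 genes were clustered with Seurat 5.3.0 (4000 variable genes without the 10 factors, 30 components, resolution 0.8). Scrublet called 0 doublets, and cells at or above the top 5% of doublet scores (176 cells, with ties) were left out in an alternative. Clusters were named by marker lists for 12 cell types, with at least 3 markers at 2 times the level of the other cells and at least 1 marker among the 10 leading genes of the cluster. Other software was pandas 2.3.3, scipy 1.17.1, numpy 2.4.6, DESeq2 1.42.0, limma 3.58.1, R 4.3.3 and Python 3.11.15.

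The members, the 7 gene lists and the tests were chosen with earlier results of these data known. Named genes were the 10 factors, Klf1, up to 3 genes called lower and 3 called higher with the largest log2 fold change in each list and comparison, and the 3 genes most like each factor over the clusters. A gene that this rule names in the megakaryocyte list is not reported here. The alternatives were DESeq2, its size factors in edgeR, 2 other count filters, a limit of a 2-fold change, the replicate number as a block, globin genes left out, each library left out, a transcript length offset, limma on log2 of the authors' normalized counts plus 1, shares of TPM, other clustering settings and thinning to 5000 counts per cell. Depth limits the single-cell shares more than the bulk values, in which the lowest raw count of a factor was 229.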

Additional observations from a re-analysis of the deposited data

How the results depend on the processing

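The 4 factors lower in EKLF-/- became 2 with the replicate number as a block (Bcl11a and Lmo2), 1 with a limit of a 2-fold change (Bcl11a), and 2 to 5 when a library was left out. A log2 fold change turned once, for Gata2 in EKLF-/-, which ranged from -0.278 to 0.017 when a library was left out and was positive without EKLF+/+ replicate 2. In EKLF/GFP+ the 8 higher factors became 4 and the 2 lower factors 0 with the 2-fold limit, and limma on the authors' normalized counts left 1 lower. With the 2-fold limit, list genes called in EKLF-/- went from 19 to 11 lower and from 6 to 2 higher, and in EKLF/GFP+ from 15 to 9 lower and from 37 to 24 higher. When a library was left out, list genes called in EKLF-/- ranged from 13 to 21 lower and from 2 to 8 higher. The cause of the changes with libraries left out was not tested. With protein-coding transcripts only, 1 factor in EKLF/GFP+ and 0 in EKLF/GFP- kept the rank they had by TPM over all transcripts. In total, of 183 values of the main comparisons under an alternative, 166 stayed on the same side. Deviations of libraries of the same replicate number from their group means correlated at -0.005, 0.003 and 0.056 in EKLF+/+ and EKLF-/-. In the GFP groups these correlations were 0.03, -0.09 and 0.024, and those of unlike numbers lay between -0.156 and 0.165. With 3 libraries per group these values cannot show whether libraries were paired, and pairing was not tested. With the replicate block, 1037 genes were lower and 864 higher in EKLF-/-, against 1356 and 1239, and in EKLF/GFP+ 3423 were lower and 2363 higher, against 3673 and 2694. No count of factors in EKLF/GFP+ changed with the block. With the 2-fold limit 591 genes were lower and 275 higher in EKLF-/-, and 2089 and 710 in EKLF/GFP+. Leaving out called doublets gave no other value because 0 were called. In single cells, all 10 factors were higher in megakaryocyte-like than in macrophage-like cells under each setting tried. The 8 higher in erythroid-like cells were 8 without the cells of highest doublet score (chosen after seeing the data), 9 with the factors kept among the variable genes, 10 at resolution 0.4, 6 at resolution 1.2 and 7 after thinning.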

Other observations

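Adgre1, which encodes F4/80, and Klf1 were both counted in 331 of the 3093 single cells, of which 118 were in cluster 5, 71 in cluster 7, 21 in the megakaryocyte-like cluster 10 and 33 in the macrophage-like clusters 0 and 4. In these 331 cells (median 34807 counts) Gata1 was 78.5 CPM and Tal1 128 CPM. In the 321 cells with Klf1 but no Adgre1 count (median 29189 counts) they were 85.3 CPM and 160.3 CPM, and in the 1961 cells with Adgre1 but no Klf1 count (median 16907 counts) 6.43 CPM and 18.6 CPM. Adgre1 was 29.8 CPM in cluster 5, 31.3 CPM in cluster 7, 29.6 CPM in the hepatoblast-like cells, which should lack it, and 714 CPM in the macrophage-like cells. It was counted in 51.2% of the cells of cluster 5, 37.1% of cluster 7 and 40.3% of the hepatoblast-like cells. Whether the Adgre1 counts in clusters 5 and 7 are background was not tested.

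Among the macrophage-like cells, 33 held a Klf1 count and 645 did not. Gata1 had 5 counts in the 33 cells (3 cells, 9.09%, 95% Wilson interval 3.14 to 23.6) and 25 counts in the 645 (23 cells, 3.57%, 2.39 to 5.30). The 33 cells were the deeper ones (median 24582 against 14944 counts). Whether their Klf1 counts are background was not tested. Lmo2 was counted in 26 of the 33 cells (78.8%) and in 358 of the 645 (55.5%), and in 24.2% and 21.4% after thinning to 5000 counts.

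Between the erythroid-like clusters 7 and 8, Gfi1b was 43.5 and 2.79 CPM, Nfe2 113 and 74.1 CPM, and Lmo2 199.8 and 96.1 CPM. The unnamed cluster 9, with 511 CPM of Adgre1, held 91.2 CPM of Tal1, 113 CPM of Lmo2 and 77.1 CPM of Nfe2 but 6.36 CPM of Gata1 and 0 of Gata2.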
